A study of Mus musculus with 2 samples.

Results

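Lox, Loxl1, Loxl2, Loxl3, Plod1, Plod3, P4ha3, Serpinh1 and Tgm2 encode proteins that fold collagen inside the cell or crosslink it outside. These 9 genes, of 32285 in the count tables, were matched by symbol, and each symbol matched 1 entry. They were followed through 4403 cells of mouse tumors, of 6768 cell barcodes, by lineage and between WT and TSK hosts. One of the 9, Serpinh1, is a chaperone rather than an enzyme.

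The tumors grew from SO cells, a C57BL/6 ovarian cancer line that lacks p53 and carries Hras and myc, in female C57BL/6 mice aged 6 to 8 weeks after injection of 1000000 cells under the skin. Hosts were either WT or TSK, the tight skin strain, which carries a duplication within Fbn1, the gene of the microfibril protein fibrillin-1. The duplication is in every host cell of a TSK mouse and not in the injected cancer cells. Tumors of 4 mice per genotype were pooled before 1 library was made from each pool, so that differences between the genotypes, between the pools and between the library preparations cannot be told apart and no test between WT and TSK was possible. Cells were not selected by type, but red blood cells were lysed and dead cells were removed.

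Collagen chains are modified while they enter the endoplasmic reticulum: prolyl 4-hydroxylases such as P4ha3 hydroxylate prolines, which holds the helix together at body temperature, and lysyl hydroxylases such as Plod1 and Plod3 hydroxylate lysines. Serpinh1, also called HSP47, binds the folded helix and escorts it out of the endoplasmic reticulum. Outside the cell, the lysyl oxidases Lox, Loxl1, Loxl2 and Loxl3 oxidize lysines and hydroxylysines, which then react to form crosslinks between collagen or elastin molecules. Tgm2, tissue transglutaminase, joins glutamine and lysine side chains, with fibronectin among its substrates, and is made by many cell types including macrophages.

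In the GENCODE M21 annotation of GRCm38, all 9 were protein-coding genes. Serpinh1 (ENSMUSG00000070436) lay at chr7:99345376-99353239 on the minus strand and P4ha3 (ENSMUSG00000051048) at chr7:100285520-100319699 on the plus strand. Plod1 lay at chr4:147909753-147936767 (minus), Plod3 at chr5:136987019-136996648 (plus), Loxl1 at chr9:58287738-58313186 (minus), Loxl2 at chr14:69609068-69695834 (plus), Loxl3 at chr6:83034173-83052562 (plus) and Tgm2 at chr2:158116402-158146436 (minus). Loxl3 overlapped Htra2, Plod3 overlapped Znhit1 and Tgm2 overlapped Rprd1b, each on the opposite strand. The sources used here do not say whether the counting used strand, so that UMIs of these overlapping genes are less certain.

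The RefSeq promoter table (GRCm38.p6) held 4 of the 9 genes. The 250 bases before the start of Serpinh1 and P4ha3 are shown because both genes act on collagen before secretion and lie on the same chromosome, while Serpinh1 was high in 4 lineages and P4ha3 was highest in fibroblast-like cells. Capitals mark matches of the motifs searched, here the GC box GGGCGG and the hypoxia response core ACGTG, which reads CACGT on the other strand.
Serpinh1, chr7:99353240-99353489, minus strand: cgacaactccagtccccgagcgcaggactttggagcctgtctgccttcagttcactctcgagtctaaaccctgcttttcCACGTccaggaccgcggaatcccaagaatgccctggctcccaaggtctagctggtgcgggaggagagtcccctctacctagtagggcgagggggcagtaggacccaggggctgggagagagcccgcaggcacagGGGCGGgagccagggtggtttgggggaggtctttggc
P4ha3, chr7:100285270-100285519, plus strand: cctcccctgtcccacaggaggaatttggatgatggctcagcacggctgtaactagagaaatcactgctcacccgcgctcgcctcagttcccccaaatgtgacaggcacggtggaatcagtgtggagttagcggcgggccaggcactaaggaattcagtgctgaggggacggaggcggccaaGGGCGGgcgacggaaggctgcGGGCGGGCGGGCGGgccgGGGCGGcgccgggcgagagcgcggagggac

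The Serpinh1 window held 1 GC box and 1 hypoxia response core, and the P4ha3 window held 5 GC boxes, 3 of them sharing bases in 1 run. Neither window held the TATA box (TATAAA) or the CCAAT box on either strand, nor the heat shock element GAANNTTC. Over 27025 promoter windows of this length, 32.9% held a GC box, 16.6% the hypoxia response core, 12.97% TATAAA, 34.5% CCAAT and 6.78% the heat shock element. The Plod3 window held 1 hypoxia response core and 1 CCAAT, and the Plod1 window held 2 GC boxes and 1 TATAAA on the other strand.

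The WT library held 21225411 UMIs and the TSK library 48296765, where a UMI is a tag that marks 1 captured RNA molecule. Cells were kept with at least 200 genes, at least 500 UMIs and at most 10% mitochondrial UMIs, and 263 barcodes found in both libraries were left out, which left 1442 WT and 2961 TSK cells with a median of 7658.5 and 7302 UMIs. Of these, 3549 fell into 7 lineages named by their raw marker UMIs. WT and TSK held 141 and 231 fibroblast-like, 86 and 1082 cancer-like, 19 and 43 mural-like (pericyte and smooth muscle), 56 and 57 endothelial-like, 338 and 448 macrophage-like, 44 and 213 neutrophil-like, and 484 and 307 T and NK-like cells. Each lineage's own markers, which named it, were all detected in both libraries and summed to between 2094 and 42871 UMIs per 1000000. The markers of any other of the 7 lineages summed to at most 802. The naming rule required such an excess in each cell, so these levels do not test the names. Of the full marker lists, 6 of 10 were found in at least 10% of the cancer-like cells and 9 of 11 in T and NK-like cells. In the other lineages all were. Cancer-like cells held 17.4% of the UMIs of the WT cells and 72.4% of those of the TSK cells. Cells were deeper in WT in all 7 lineages, with medians of 23219 against 11145 UMIs in fibroblast-like and 10192 against 6554 in macrophage-like cells. Levels and summed marker levels are given as CPM, the UMIs of a gene per 1000000 UMIs of all genes in the same lineage and library, and intervals are exact 95% intervals that cover counting error only.

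**Figure D1:**
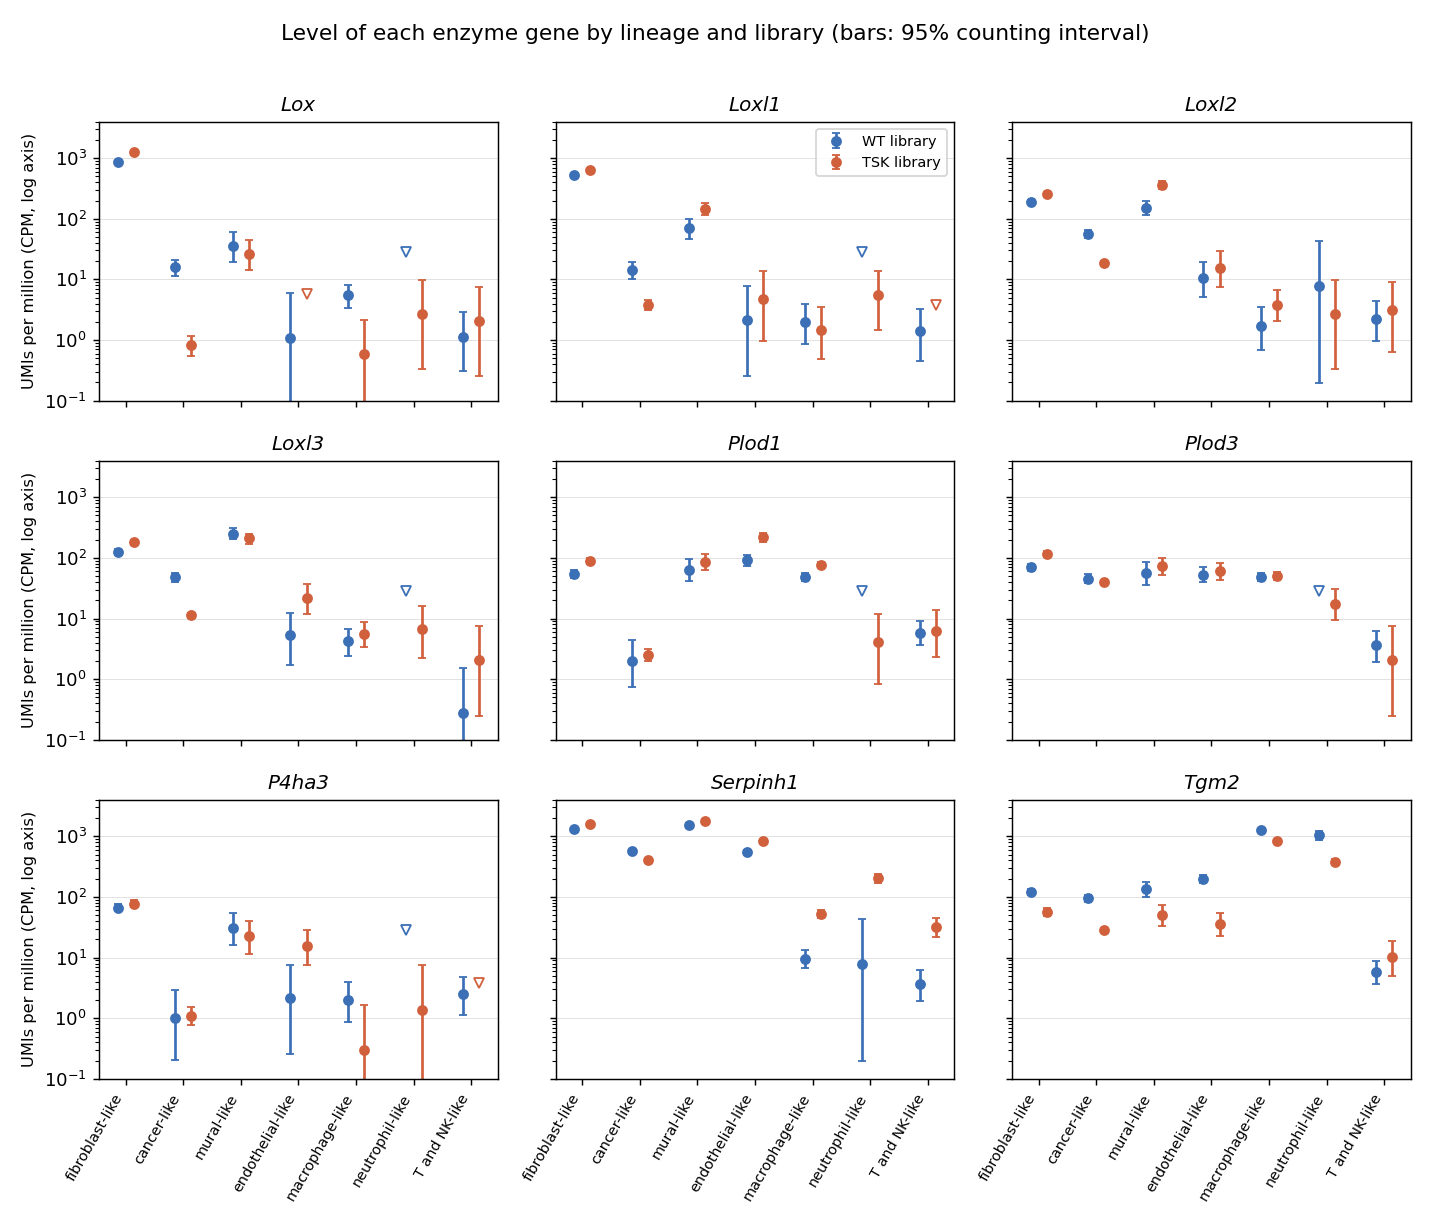
Level of the 9 genes (CPM, log axis) in 7 lineages of the WT library (blue) and the TSK library (orange), with exact 95% counting intervals; open triangles mark the upper interval bound where no UMI was counted. Lox and Loxl1 peaked in fibroblast-like cells, Serpinh1 stood high in 4 lineages, and Tgm2 peaked in macrophage-like cells in both libraries.

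Among the folding proteins, the chaperone Serpinh1 was high in 4 lineages: mural-like, fibroblast-like, endothelial-like and cancer-like cells. In fibroblast-like cells it stood at 1344 CPM in WT (1305 to 1385) and 1583 in TSK (1536 to 1630.0). Mural-like cells held 1512 and 1767, endothelial-like cells 551 and 841, and cancer-like cells 569.8 and 411. Mural-like cells led in both libraries, and the cancer-like and endothelial-like intervals overlapped in WT. Serpinh1 was found in 96.5% of WT and 94.4% of TSK fibroblast-like cells. In T and NK-like cells, which make no fibrillar collagen and serve here as the background, these shares were 2.69% and 9.45% at median depths of 6818 and 2873 UMIs. When each cell was thinned to 1000 UMIs, the expected shares were 64.6% and 69.6% in fibroblast-like cells against 0.420% and 3.40% in T and NK-like cells.

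P4ha3, a catalytic subunit of prolyl 4-hydroxylase, was highest in fibroblast-like cells. It stood at 66.8 CPM in WT fibroblast-like cells (58.2 to 76.2) and 77.3 in TSK (67.3 to 88.3), and at 30.8 and 22.6 in mural-like cells. Endothelial-like cells held 2 UMIs in WT and 10 in TSK, or 2.13 and 15.7 CPM, and in TSK their interval (7.54 to 28.9) overlapped that of mural-like cells (11.7 to 39.5). Cancer-like cells held 3 and 36 P4ha3 UMIs, or 1.01 and 1.09 CPM. T and NK-like cells held 9 in WT (2.51 CPM, an interval that overlaps the cancer-like one) and 0 in TSK. Fibroblast-like cells held 80.4% of the P4ha3 UMIs of the WT cells and 72.2% of those of the TSK cells, while they held 19.1% and 6.12% of the UMIs of all genes. The counts were low in single cells: after thinning to 1000 UMIs, 5.38% and 7.01% of fibroblast-like cells were expected to show a UMI.

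The lysyl hydroxylases were found in stromal and macrophage-like cells and, for Plod3, in cancer-like cells as well. Plod1 was highest in endothelial-like cells, at 91.4 CPM in WT (73.1 to 113) and 218 in TSK (184 to 258). Fibroblast-like cells held 54.5 and 88.7, mural-like cells 64.2 and 86.7, and macrophage-like cells 48.2 and 77.1. The WT intervals of the endothelial-like and mural-like cells overlapped, as did those of the mural-like, fibroblast-like and macrophage-like cells, each with its neighbour in this order. In cancer-like cells Plod1 was counted 6 times in WT and 84 times in TSK, which is 2.02 and 2.54 CPM, below the 5.86 and 6.24 of T and NK-like cells.

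Plod3, which both hydroxylates lysine and adds sugars to hydroxylysine, was spread over 5 of the 7 lineages. It ranged over 45.7 to 69.8 CPM among the fibroblast-like, cancer-like, mural-like, endothelial-like and macrophage-like cells of WT, and over 39.5 to 116 among those of TSK. Fibroblast-like cells led in both libraries, and in WT each neighbouring pair of these lineages had overlapping intervals. The WT intervals of fibroblast-like (61.1 to 79.5) and cancer-like cells (38.3 to 54.0) did not overlap. In TSK, of the neighbouring pairs of these lineages, only mural-like with endothelial-like and endothelial-like with macrophage-like cells overlapped. Plod3 was counted in 66.3% of WT and 58.5% of TSK cancer-like cells and in 2.48% and 0.651% of T and NK-like cells, at median depths of 34654 and 28434 against 6818 and 2873 UMIs. After thinning to 1000 UMIs these shares were 4.12% and 3.61% against 0.403% and 0.112%. Cancer-like cells held 19.1% of the WT and 63.7% of the TSK Plod3 UMIs, beside 17.4% and 72.4% of the UMIs of all genes.

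**Figure D2:**
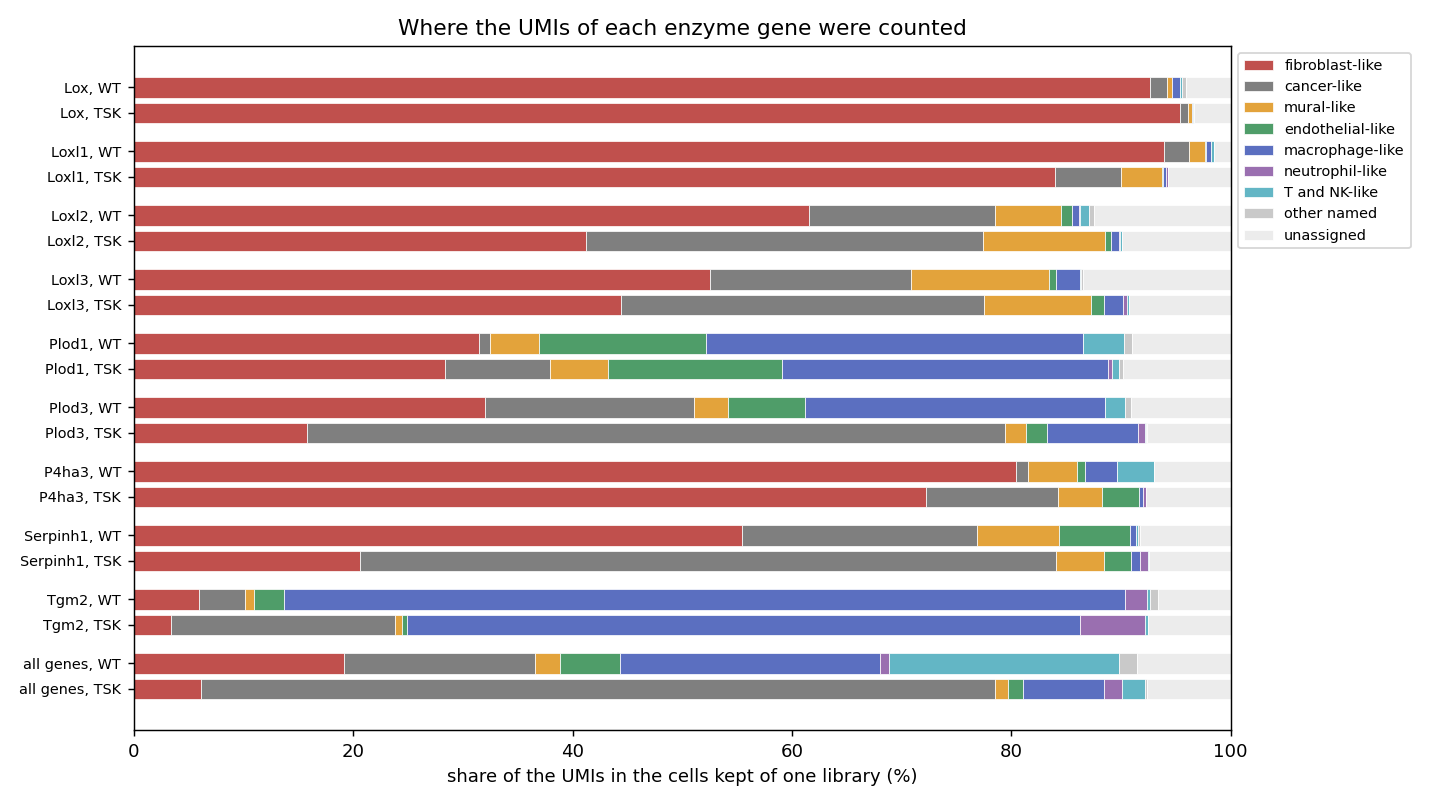
Share of each gene's UMIs (%) by lineage in the kept cells of each library, with the UMIs of all genes in the bottom pair of bars. Fibroblast-like cells held over 80% of the Lox and Loxl1 UMIs in both libraries, and macrophage-like cells most of the Tgm2 UMIs.

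The lysyl oxidases split into a pair that peaked in fibroblast-like cells, Lox and Loxl1, and a pair shared with mural-like and cancer-like cells. Only Lox was nearly confined to fibroblast-like cells. Lox (chr18:52516067-52529867, minus strand) crosslinks fibrillar collagen and elastin. It stood at 856 CPM in WT fibroblast-like cells (825 to 888) and at 1266 in TSK (1225 to 1309). Mural-like cells came next, at 35.9 and 26.4, on 14 UMIs in each library of which 11 in WT and 12 in TSK came from 1 cell. Fibroblast-like cells held 92.6% of the WT and 95.4% of the TSK Lox UMIs. Lox was uneven within the lineage: the 10% of cells with the most Lox held 45.5% of its UMIs in WT and 42.5% in TSK, with up to 177 and 175 UMIs in a single cell.

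Loxl1, best known for crosslinking elastin, followed Lox. It stood at 529 CPM in WT fibroblast-like cells (505 to 555) and 629 in TSK (600.1 to 659), with 69.3 and 147 in mural-like cells. A Loxl1 UMI was found in 52.6% of WT and 39.5% of TSK mural-like cells. Loxl1 was more even among fibroblast-like cells than Lox, with a UMI in 93.6% and 91.8% of them and 27.7% and 27.9% of the UMIs in the top 10% of cells. In T and NK-like cells Loxl1 was counted 5 times in WT and not at all in TSK, where a count of 0 allows up to 3 UMIs, or 3.12 CPM.

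Loxl2 and Loxl3, which also act on basement membrane collagen or on other substrates, were as high in mural-like as in fibroblast-like cells. Loxl2 stood at 187 and 254 CPM in WT and TSK fibroblast-like cells and at 151 (115 to 195) and 358 (309 to 413) in mural-like cells. Loxl3 stood at 125 and 181 in fibroblast-like and at 252 and 209 in mural-like cells. The mural-like lineage led for Loxl3 in both libraries, but with overlapping intervals in TSK, and for Loxl2 it led only in TSK. These levels rest on 19 WT and 43 TSK mural-like cells, and over both libraries fibroblast-like cells led for Loxl2 once cells with markers of a second lineage were left out. In cancer-like cells Loxl2 stood at 56.8 and 18.8 and Loxl3 at 48.0 and 11.3 CPM, above the 2.23 and 3.12 (Loxl2) and the 0.279 and 2.08 (Loxl3) of T and NK-like cells.

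Tgm2 had a different distribution, with macrophage-like cells first and neutrophil-like cells next in both libraries. Macrophage-like cells stood at 1264 CPM in WT (1229.7 to 1299) and 853 in TSK (822 to 885), and neutrophil-like cells at 1049 (879 to 1241) and 381 (337 to 428). The WT intervals of these lineages overlapped and the TSK intervals did not. The stromal and cancer-like lineages held between 94.4 (cancer-like) and 198 (endothelial-like) in WT and between 29.1 (cancer-like) and 56.2 (fibroblast-like) in TSK. T and NK-like cells held 5.86 and 10.4. After thinning to 1000 UMIs, 46.2% and 41.9% of macrophage-like cells were expected to show Tgm2, against 0.642% and 1.10% of T and NK-like cells.

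Within the macrophage-like cells Tgm2 went with Arg1, the arginase that marks one activation state of tumor macrophages. Cells with at least 500 Arg1 CPM stood at 1957 Tgm2 CPM in WT (142 cells) and 1187 in TSK (208 cells), and the cells below that threshold at 595 (158 cells) and 571 (115 cells). The threshold is a cut through a range: 13 WT and 30 TSK cells lay within 2-fold of it. Cells with at least 2 UMIs of the resident macrophage genes Folr2, Lyve1 and Cd163 formed a separate set and stood at 961 (38 cells) and 601 (125 cells).

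**Figure D3:**
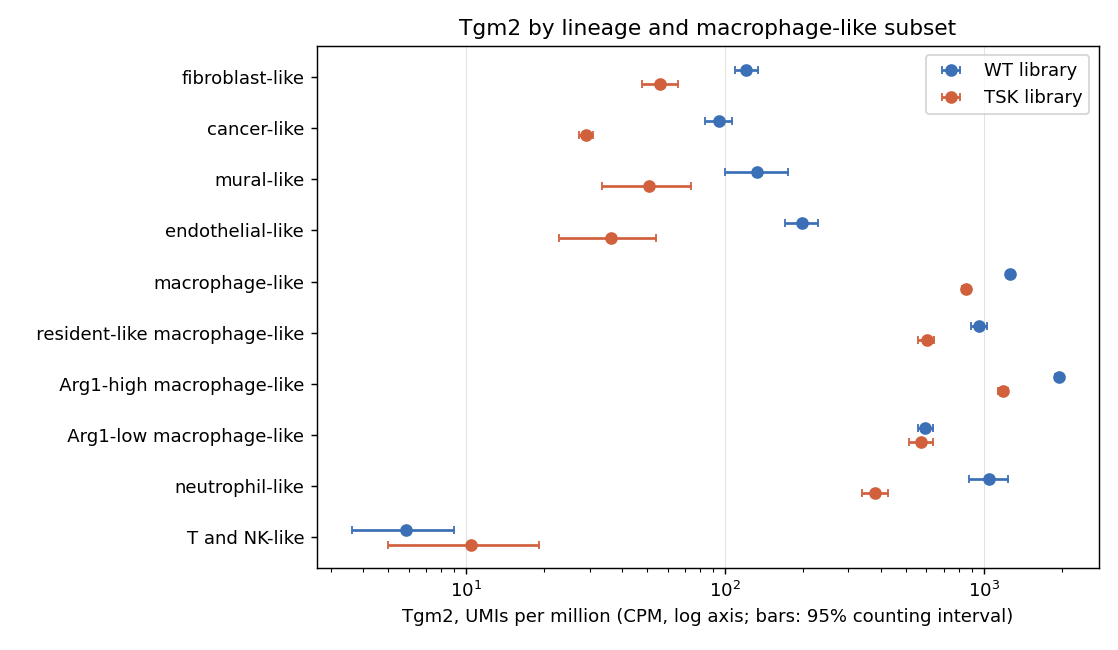
Tgm2 CPM (log axis) by lineage, with 3 subsets of the macrophage-like cells, in WT (blue) and TSK (orange); bars are exact 95% counting intervals. TSK lay left of WT in fibroblast-like, cancer-like, mural-like, endothelial-like, macrophage-like and neutrophil-like cells, while the intervals overlapped in Arg1-low macrophage-like and in T and NK-like cells.

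The TSK and WT libraries were then compared within each lineage, as log2 ratios of CPM. The ratios of all genes with at least 20 UMIs were centred above 0, with medians of 0.28 in fibroblast-like, 0.16 in cancer-like, 0.25 in mural-like, 0.32 in endothelial-like, 0.24 in macrophage-like, 0.57 in neutrophil-like and 0.16 in T and NK-like cells. Each ratio is therefore best read against the median of its lineage. A difference of 2-fold or more in either direction is counted below as a description of these 2 libraries.

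In fibroblast-like cells, the main source of the lysyl oxidases, 8 of the 9 genes differed by less than 2-fold. Of all 11049 genes measured there, 10.5% were 2-fold or more higher and 4.15% 2-fold or more lower in TSK, and of the 9 genes 0 were higher and 1, Tgm2, was lower. The log2 ratio of Lox was 0.56 (0.49 to 0.64), from 2795 WT and 3540 TSK UMIs, or 0.29 above the median gene. Plod3 had 0.73 (0.48 to 0.98) and Plod1 0.70 (0.42 to 0.99), while Loxl3 had 0.53 and Loxl2 0.44. Loxl1 (0.25), Serpinh1 (0.24) and P4ha3 (0.21) lay within 0.1 of the median gene. Over the 9 genes the median log2 ratio was 0.44, against 0.28 for all genes, and 5 lay above the median of all genes.

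A UMI of Clec3b, Pi16 or Cd34, genes of adventitial-type fibroblasts, was found in 136 WT and 191 TSK fibroblast-like cells. Within these Lox had a log2 ratio of 0.57 (0.49 to 0.64) and Tgm2 of -1.07 (-1.36 to -0.78). Loxl3, at 0.53 over all fibroblast-like cells, had 0.091 (-0.13 to 0.31) there, and the other genes lay between 0.21 (Serpinh1) and 0.62 (Plod3). The remaining 5 WT and 40 TSK cells gave 0.41 (0.066 to 0.76) for Lox, and for Tgm2 an interval of -1.67 to 1.88 on 4 and 22 UMIs. In these cells Loxl3 had 0.66 (0.018 to 1.36), Plod3 0.89 and P4ha3 0.060. Loxl1 (-0.39), Loxl2 (-0.26), Plod1 (-0.21) and Serpinh1 (-0.13) had negative ratios there, each with an interval that reaches positive values.

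Tgm2 was lower in TSK in 6 of the 7 lineages, although by very different amounts. In endothelial-like cells it was counted 186 times in WT and 23 times in TSK, or 198 and 36.2 CPM, a log2 ratio of -2.45 (-3.14 to -1.82). The ratios were -1.70 (-1.89 to -1.50) in cancer-like, -1.46 (-1.76 to -1.15) in neutrophil-like, -1.39 (-2.12 to -0.69) in mural-like and -1.11 (-1.38 to -0.84) in fibroblast-like cells. In macrophage-like cells, which held most Tgm2, the ratio was -0.57 (-0.63 to -0.50), less than 2-fold. Among fibroblast-like cells of at most 10000 UMIs and genes, 24 in WT and 100 in TSK, the ratio was 0.077 with an interval of -1.74 to 2.51, so that no difference was detectable in these shallower cells. The same cap left 15 WT and 206 TSK cancer-like cells, with a ratio of -0.95, under 2-fold (-2.28 to 0.74). With lineages taken from clusters, the neutrophil-like ratio was -0.56, under 2-fold. T and NK-like cells, at 21 and 10 UMIs, gave 0.83 with an interval that spans 0 (-0.42 to 1.98). Among macrophage-like subsets the ratio was -0.72 (-0.80 to -0.64) in Arg1-high, -0.68 (-0.83 to -0.53) in resident-like and -0.058 (-0.24 to 0.12) in Arg1-low cells.

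Macrophage markers moved with Tgm2 in part of these lineages. All 9 macrophage markers were detected in the WT fibroblast-like cells and 8 in the TSK ones, where Adgre1 was at 0, and their summed level was 90.7 and 35.1 CPM. In cancer-like cells all 9 were detected in both libraries, at 27.9 and 13.3. In mural-like cells (4 and 6 of 9 detected) they stood at 28.2 and 28.3 and in endothelial-like cells (8 and 7 of 9) at 17.0 and 25.1. In neutrophil-like cells (6 and 9 of 9) they stood at 109 and 73.4. Macrophage-like cells themselves held 5914 and 8750.1, and they made up 23.7% and 7.39% of the UMIs of all kept cells. Tgm2 over all kept cells stood at 391 CPM in WT and 103 in TSK. Leaving out cells with markers of a second lineage gave Tgm2 ratios of -0.85 in fibroblast-like and -0.80 in neutrophil-like cells, both under 2-fold, and of -1.64 in cancer-like and -1.73 in endothelial-like cells. The part of admixed RNA in the remainder was not tested.

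**Figure D4:**
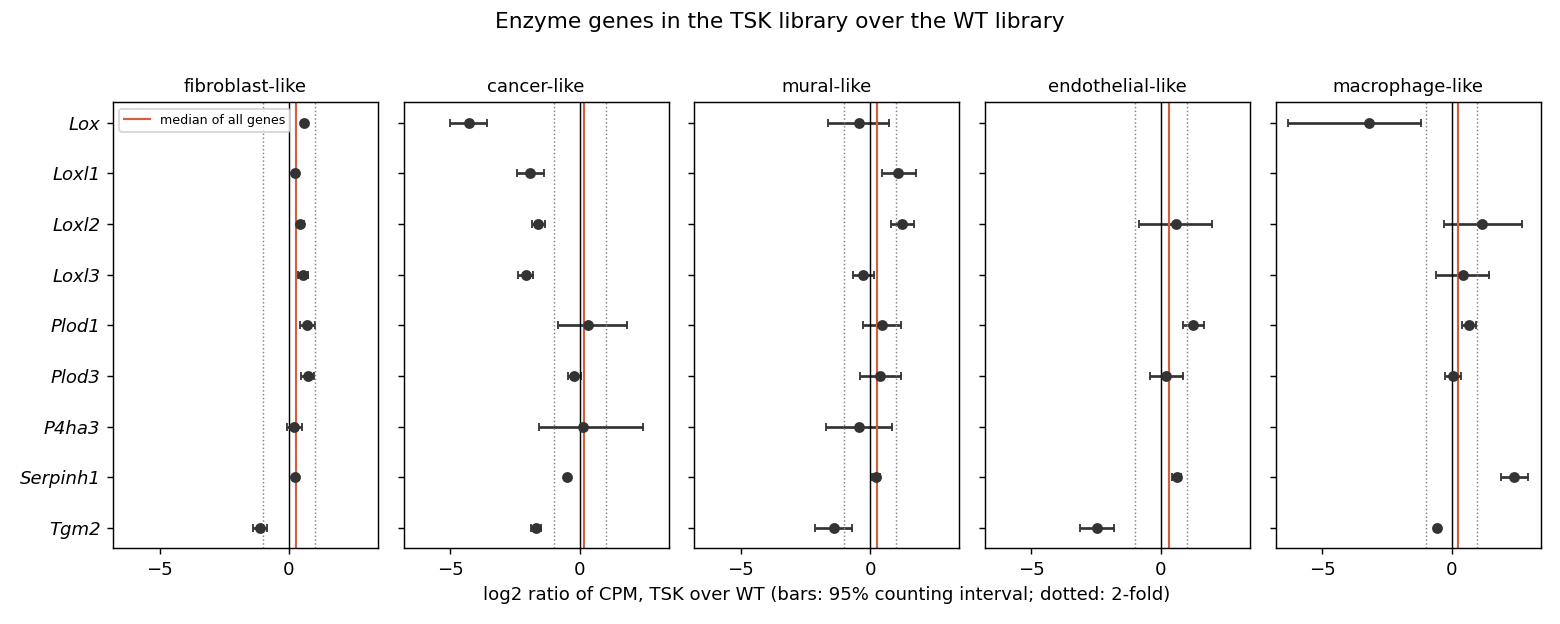
Log2 ratio of CPM, TSK over WT, of the 9 genes in 5 lineages (points with exact 95% counting intervals, only genes with at least 20 UMIs in the lineage), with the median of all genes (orange line) and 2-fold limits (dotted). Tgm2 lay left of 0 in all 5 panels, and the 4 lysyl oxidases lay left of -1 in cancer-like cells.

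In cancer-like cells Lox, Loxl1, Loxl2 and Loxl3 were 2-fold or more lower in TSK, although for Loxl1 and Loxl2 this did not hold in every setting. Loxl4, the other lysyl oxidase, had 0 UMIs in WT and 13 in TSK, too few to be measured. There, 12.3% of 14737 genes were 2-fold or more higher and 8.83% 2-fold or more lower in TSK, and of the 9 genes 0 were higher and 5 were lower (Lox, Loxl1, Loxl2, Loxl3 and Tgm2). Lox was counted 47 times in 86 WT cells and 27 times in 1082 TSK cells, or 15.8 (11.6 to 21.0) and 0.816 (0.538 to 1.19) CPM, a log2 ratio of -4.27. Loxl1 gave -1.90 (-2.42 to -1.36) from 42 and 125 UMIs, Loxl2 -1.59 (-1.84 to -1.34) from 169 and 623, and Loxl3 -2.08 (-2.36 to -1.79) from 143 and 375. The folding genes differed less: Serpinh1 had -0.47 (-0.55 to -0.40) and Plod3 -0.21 (-0.47 to 0.054), while Plod1 and P4ha3, at 6 and 3 WT UMIs, were too sparse to order.

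The WT counts of these genes were concentrated in few cells. The 10% of WT cancer-like cells with the most Lox held 91.5% of its UMIs, and 1 cell held 88 of the 169 Loxl2 UMIs. Without the cell with the most UMIs of the gene in each library, the log2 ratio of Loxl2 was -0.61, under 2-fold, while Lox, Loxl1 and Loxl3 stood at -3.73, -1.81 and -1.99. All 8 fibroblast markers were detected in cancer-like cells of both libraries, at a summed level of 137 and 125 CPM in WT and TSK, against 8142 and 6537 in fibroblast-like cells. Among genes that fibroblast-like cells also express, Col1a1 stood at 107 and 33.6 CPM (-1.67), Fbn1 at 119 and 52.0 (-1.20), Sparc at 528 and 273 (-0.95) and Eln at 9.07 and 4.60 (-0.98), lower in TSK as well. Other such genes went the other way: Col5a2 and Adamts2, also highest in fibroblast-like cells, were 2-fold or more higher in TSK, Adamts2 on 1 WT UMI. Of 35 collagen maturation and substrate genes measured in cancer-like cells, 11 lay above the median gene. The part of fibroblast RNA in these counts was not tested. Cancer-like cells with a UMI of Lgals7 gave -4.32 for Lox, -1.62 for Loxl2 and -2.11 for Loxl3. Restricting all cells to 5000 to 40000 UMIs, a range chosen after seeing the data, gave -0.67 for Loxl1 and -0.94 for Loxl2, both under 2-fold, and -2.50 and -1.53 for Lox and Loxl3.

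In mural-like cells, where 12.9% of 5992 genes were 2-fold or more higher and 6.94% 2-fold or more lower in TSK, 2 of the 9 genes were higher and 1, Tgm2, was lower. Loxl2 was counted 59 and 190 times (log2 ratio 1.24, 0.81 to 1.69), and 1 TSK cell held 46 of those UMIs. Loxl1 was counted 27 and 78 times (1.08, 0.44 to 1.77), with 34 UMIs in 1 TSK cell, and without the top cells its ratio was 0.85. Lineages from clusters gave 0.65 for Loxl2, and summing all fixed markers, a setting added after seeing the data, gave 0.21 for Loxl1. Serpinh1, at 589 and 938 UMIs, had 0.23, close to the median gene.

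In endothelial-like cells 5 of the 9 genes reached 20 UMIs. Among 7475 genes measured, 16.6% were 2-fold or more higher and 6.17% 2-fold or more lower in TSK, and of the 5 genes 1, Plod1, was higher and 1, Tgm2, lower. Plod1 was counted 86 times in WT and 139 times in TSK, a log2 ratio of 1.26 (0.86 to 1.66) or 0.94 above the median gene. Serpinh1 had 0.61 (0.43 to 0.79) and Plod3 0.21 (-0.44 to 0.84). The lysyl oxidases were sparse there, with 1 and 0 UMIs of Lox, 2 and 3 of Loxl1, 10 and 10 of Loxl2, and 5 and 14 of Loxl3.

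In macrophage-like, neutrophil-like and T and NK-like cells no lysyl oxidase passed 22 UMIs and P4ha3 did not pass 9 UMIs in either library, while Serpinh1, the collagen chaperone, was more frequent in TSK. In macrophage-like cells 10% of 10600 genes were 2-fold or more higher and 3.42% 2-fold or more lower in TSK. Of 7 genes measured, 2 were past 2-fold higher, Serpinh1 and Loxl2, and Lox was lower (22 and 2 UMIs, 14 of the WT ones in 1 cell). The Loxl2 ratio of 1.16 rests on 7 and 13 UMIs, with an interval that spans 0 (-0.28 to 2.72), and was 0.59 in cells of 5000 to 40000 UMIs and 0.85 without cells with second-lineage markers. Serpinh1 stood at 9.64 CPM in WT and 51.9 in TSK macrophage-like cells (2.43, 1.92 to 2.97), at 3.63 and 32.2 in T and NK-like cells (3.15, 2.18 to 4.21), and at 7.77 and 204 in neutrophil-like cells, with 1 UMI in WT. Plod1, above the T and NK-like level in macrophage-like cells of both libraries, had 0.68 (0.40 to 0.95). In T and NK-like cells, 5.67% of 9116 genes were higher and 3.67% lower, and Serpinh1 was the 1 of 3 measured genes past 2-fold. In neutrophil-like cells 42.9% of 4944 genes were higher and 13% lower, and of the 2 measured genes Serpinh1 was higher and Tgm2 lower.

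Markers of the cancer-like lineage moved with Serpinh1 in these cells. The summed level of Lgals7, Cdkn2a, Hmga2 and Grik2 was 7.66 CPM in WT and 122 in TSK macrophage-like cells, 11.2 and 107 in T and NK-like cells, with 4 of 4 detected throughout, and 0 and 802 in neutrophil-like cells, where all 4 were at 0 in WT. Cancer-like cells themselves held 2937 and 2094. Without cells that carried markers of a second lineage, the Serpinh1 log2 ratio in macrophage-like cells was 0.64, under 2-fold. With equal weight for each cell it was 1.34, and without the cell with the most Serpinh1 in each library, which held 26 of the 39 WT UMIs, it was 3.72. In neutrophil-like cells equal weight gave 0.80, under 2-fold, and leaving out cells with second-lineage markers 2.47. In T and NK-like cells the Serpinh1 ratio stayed between 2.92 and 3.27 under all 10 other settings. The part of free or admixed cancer cell RNA in the Serpinh1 counts of leukocytes was not tested.

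**Figure D5:**
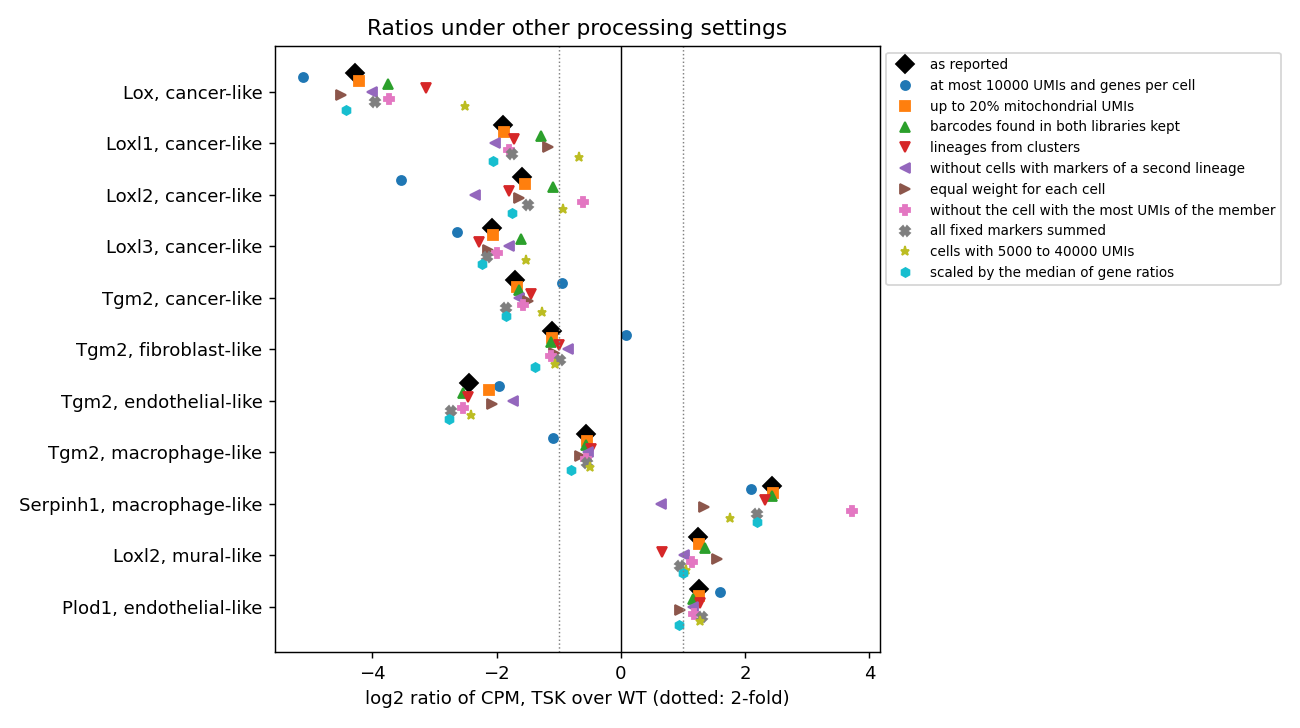
Log2 ratio of CPM, TSK over WT, of 11 gene and lineage pairs as reported (black diamonds) and under 10 other settings (coloured symbols), with 2-fold limits dotted. Tgm2 stayed left of 0 in cancer-like, endothelial-like and macrophage-like cells, and in fibroblast-like cells 1 of the 10 other settings gave 0.077.

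The other genes of collagen maturation followed the same lineages. Of 39 such genes and substrates, 24 were highest in fibroblast-like and 8 in mural-like cells, 4 in endothelial-like and 1 each in macrophage-like, neutrophil-like and T and NK-like cells. The last of these, Tgm3, had 3 UMIs in all, so that 1 UMI set its place. The exceptions included F13a1, the A subunit of coagulation factor XIII and like Tgm2 a transglutaminase, which stood at 243 and 825 CPM in WT and TSK macrophage-like cells. In fibroblast-like cells 36 of the 39 were measured, with a median log2 ratio of 0.29 against 0.28 for all genes. Of the 36, 1 was 2-fold or more higher in TSK and 1 lower, where 10.5% and 4.15% of all genes were. The higher one was Colgalt1, which adds galactose to the hydroxylysine that Plod enzymes make, at 60.3 and 183 (1.60, 1.36 to 1.85), and the lower one Adamts3, a procollagen protease, at 75 and 31 UMIs. Colgalt1 was also past 2-fold in endothelial-like (1.60) and macrophage-like cells (1.30) and at 0.21 in cancer-like cells.

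Among the collagens that Lox acts on, in fibroblast-like cells, Col1a1 stood at 10269 and 8419.8 CPM in WT and TSK (-0.29, -0.31 to -0.26), Col3a1 at 12143 and 11038 (-0.14) and Col1a2 at 9971 and 10039 (0.0098), all below the median gene, whereas Lox was above it. Plod2, the lysyl hydroxylase of the collagen ends and absent from the 9 genes, had 0.51, and the prolyl 4-hydroxylase subunits P4ha1, P4ha2 and P4hb had 0.76, 0.81 and 0.58. Fbn1, whose gene is altered in TSK, stood at 1514 and 1785 (0.24), a count that does not show the duplication. In cancer-like cells 35 were measured, 2 higher (Adamts2, Col5a2) and 5 lower (Fkbp14, Creb3l1, F13a1, Col1a1, Fbn1), where 12.3% and 8.83% of all genes were. Adamts2 rests on 1 WT UMI, with an interval of -1.21 to 6.74. In endothelial-like cells 30 were measured, 14 higher, among them P4hb (1.06), Fkbp10 (1.38) and Bmp1 (1.65), and 1, Eln, lower (30 and 1 UMIs), where 16.6% and 6.17% of all genes were. Of the markers of other lineages in endothelial-like cells, mural markers stood highest, at 236 CPM in WT and 402 in TSK. Cancer-like markers stood at 6.38 and 81.7, neutrophil markers at 23.4 and 129, and fibroblast markers at 10.6 and 18.9. The part of RNA from these lineages in the endothelial-like counts was not tested.

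The 9 genes differed in how closely their profiles went together over 13 combinations of lineage and library with at least 20 cells, on a log2 scale with 10 added to the CPM. Pearson's r was 0.98 for Loxl2 with Loxl3, 0.95 for Lox with Loxl1, 0.95 for Loxl1 with P4ha3, and 0.31 for Lox with Plod1. Tgm2 gave values between -0.28 and 0.053 with the other 8. The points share libraries and cover 7 lineages, so these values describe the profiles only. Among 11896 genes, the profile most like that of Lox was Htra3 (0.99), that of Loxl1 was Medag (1.00), those of Loxl2 and Loxl3 were Fat1 (0.97) and Creb3l1 (0.98), and that of P4ha3 was Nsg1 (0.99). Serpinh1 was closest to Parva (0.99), Plod3 to Tmem205 (0.98), Plod1 to Procr (0.95) and Tgm2 to Mpp1 (0.96). For Tgm2 the next was Hmox1, a heme-degrading enzyme (0.96), and Plod1 was the gene of the 9 with the lowest leading value.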

How the data were processed

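Cells of pooled tumors, 4 mice per genotype, were measured in 1 WT and 1 TSK library by 10x 3′ single-cell RNA-seq. The deposited values are raw counts of UMIs for each gene in each barcode, made by the authors with Cell Ranger on mm10. The file header gives version 7.1.0 and the submitters' processing notes 7.1.1, and whether intronic reads were counted is not given in the sources used here. No deposited column of per-sample values was left unused.

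The 9 genes, the 39 genes of collagen maturation and the lineage markers were chosen with earlier results of these data known. Barcodes were kept with at least 200 genes, at least 500 UMIs, at most 10% mitochondrial UMIs and presence in 1 library, which left 1442 of 2332 in WT and 2961 of 4436 in TSK. A cell was named for a lineage when at least 3 UMIs from at least 2 of its markers were counted, and at least 2 times as many as for any other lineage. This used 106 markers, and 10 markers shared between lineages were left out after their values were seen. No doublet caller was run, and mixed cells fell to the 784 unassigned cells or were left out in an alternative.

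UMIs were summed by lineage and library and divided by all UMIs of the same cells, per 1000000 (CPM), with exact 95% Poisson, binomial or conditional intervals. Such intervals hold counting error only. Where no UMI was counted, 3 counts were taken as the limit. Ratios were described for genes with at least 20 UMIs in the lineage in the reported setting. With 1 library per genotype no test was made, and the 2-fold count of all genes serves as the background. Expected shares of cells with a UMI were also computed after thinning each cell to 1000 UMIs, leaving out shallower cells. In fibroblast-like cells 138 of 141 WT and 226 of 231 TSK cells were deep enough, in macrophage-like cells 333 of 338 and 422 of 448, and in T and NK-like cells 484 of 484 and 299 of 307. The intervals were checked for 3 lineages on Poisson counts drawn from the summed profile, the same model that the intervals assume. They held 96.0% (fibroblast-like, 10827 genes), 96.4% (cancer-like, 14512 genes) and 95.7% (macrophage-like, 10415 genes) of the known ratios. Coverage of about 95% was therefore set in advance, and the check does not address counts that are uneven between cells. Of genes drawn without a change, 1.50%, 5.91% and 1.46% still came out 2-fold or more apart.

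Alternatives were a cap of 10000 UMIs and genes per cell, up to 20% mitochondrial UMIs, shared barcodes kept, lineages from Leiden clusters, cells with markers of a second lineage left out, equal weight per cell, the top cell left out, scaling by the median gene and thinning to 500 or 2000 UMIs. The sum of all fixed markers and a range of 5000 to 40000 UMIs were added after seeing the data. The genes that could be named were the 9, the 39 and, for each of the 9, the 3 genes with the most similar profile over 13 combinations of lineage and library with at least 20 cells. Positions came from GENCODE M21 (GRCm38), in which 32158 of 32285 gene IDs were found, and promoters from RefSeq. Computation used scipy 1.17.1, numpy 2.4.6 and pandas 2.3.3 in Python 3.11.15, clustering igraph 0.11.9 and leidenalg 0.10.2, and plots matplotlib 3.10.9.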

Additional observations from a re-analysis of the deposited data

Results flagged for a closer look

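Several of the genes differed between WT and TSK in opposite directions in different lineages, which the single library per genotype does not allow to be tested. The log2 ratio of Lox, TSK over WT, was 0.56 in fibroblast-like cells, against -4.27 in cancer-like and -3.20 in macrophage-like cells. The macrophage-like value rests on 22 WT and 2 TSK UMIs, with 14 of the WT ones in a single cell. Loxl1 had 0.25 in fibroblast-like and 1.08 in mural-like cells, and -1.90 in cancer-like cells. Loxl2 had 0.44 in fibroblast-like and 1.24 in mural-like cells, and -1.59 in cancer-like cells. Loxl3 had 0.53 in fibroblast-like and -2.08 in cancer-like cells. Serpinh1 had 0.24 in fibroblast-like, 0.23 in mural-like, 0.61 in endothelial-like, 2.43 in macrophage-like, 4.71 in neutrophil-like and 3.15 in T and NK-like cells, and -0.47 in cancer-like cells. Its neutrophil-like value rests on 1 WT UMI. Markers of the cancer-like lineage were also higher in TSK in macrophage-like, neutrophil-like and T and NK-like cells. The difference between lineages was not tested for any of these genes, and the fibroblast-like value of Loxl1 and the fibroblast-like and mural-like values of Serpinh1 lie below the median of all genes of their lineage.

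Barcodes left out of the reported comparisons also held these transcripts, above the limit that a count of 0 allows. In the WT library 251 barcodes were shared with the TSK library but passed the other filters. They stood at 678 CPM for Serpinh1, 113 for Tgm2, 86.3 for Lox, 52.2 for Plod3, 51.8 for Loxl2, 35.4 for Plod1, 32.8 for Loxl3, 25.8 for Loxl1 and 9.34 for P4ha3. In the TSK library 255 such barcodes stood at 365.7 CPM for Serpinh1, 21.0 for Plod3, 15.8 for Tgm2 and 13.2 for P4ha3. Barcodes that failed the filter numbered 627 in WT, with 81.9 CPM for Tgm2, 71.3 for Serpinh1, 22.1 for Lox, 17.3 for Loxl3, 13.5 for Loxl2, 12.5 for Plod1, 11.6 for Loxl1 and 8.67 for Plod3. The 1212 such barcodes of TSK held 237 CPM for Serpinh1, 63.6 for Tgm2, 40.9 for Plod3, 15.1 for Loxl2, 8.89 for Lox and for Loxl3, 5.34 for Loxl1 and 2.67 for Plod1 and for P4ha3.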

How the results depend on the processing

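No paired analysis was possible because each genotype has 1 library, and likewise no library was left out. Of the log2 ratios and shares of single genes, 380 stayed within the counting interval of the reported value under another setting. Another 144 moved outside it. A change of direction was counted apart only for ratios past 2-fold as reported, and there was 1. Tgm2 in fibroblast-like cells was 0.077 under the cap of 10000 UMIs and genes per cell. Smaller ratios that changed sign are among the 380 and 144. Plod1 in T and NK-like cells kept its sign in 4 of 10 settings, P4ha3 in cancer-like cells in 5 of 9 and Plod1 in cancer-like cells in 6 of 9. Lox in mural-like cells kept it in 6 of 8, and Loxl3 in mural-like and Plod3 in macrophage-like cells in 7 of 10. The leading lineage was as reported for all 9 genes under 7 of 9 settings. Loxl2 went from mural-like to fibroblast-like without cells with markers of a second lineage, and Loxl3 likewise with all fixed markers.

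Counts of the 9 genes past 2-fold were less stable, and the cause was not tested except where fewer cells remained. As reported, 1 T and NK-like, 0 cancer-like, 1 endothelial-like, 0 fibroblast-like, 2 macrophage-like, 2 mural-like and 1 neutrophil-like were higher in TSK, and 0, 5, 1, 1, 1, 1 and 1 were lower. Under the cap of 10000 UMIs, which left 24 WT and 100 TSK fibroblast-like cells, 2 T and NK-like, 3 cancer-like, 3 endothelial-like, 1 fibroblast-like, 4 macrophage-like and 6 mural-like were higher, and 0 fibroblast-like, 2 macrophage-like and 0 neutrophil-like were lower. Equal weight per cell gave 2 T and NK-like, 2 cancer-like and 0 neutrophil-like higher and 2 mural-like lower. With shared barcodes kept, 1 cancer-like was higher. Cells of 5000 to 40000 UMIs, chosen after seeing the data, gave 1 cancer-like, 1 fibroblast-like, 1 macrophage-like and 1 mural-like higher, and 3 cancer-like and 2 mural-like lower. Without cells with markers of a second lineage, 2 endothelial-like and 0 macrophage-like were higher, and 0 fibroblast-like, 3 mural-like and 0 neutrophil-like lower. All fixed markers gave 2 endothelial-like higher, and 0 fibroblast-like and 2 mural-like lower. Scaling by the median gene gave 0 endothelial-like, 1 macrophage-like and 0 mural-like higher. Clusters gave 1 mural-like higher and 0 neutrophil-like lower. Without the top cell, 1 mural-like was higher and 2 were lower. Depth limits the sparse genes: Plod1 and P4ha3 in cancer-like cells rest on 6 and 3 WT UMIs.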
